A study of Mus musculus with 10 samples.

Results

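To describe the 2 cell types that meet in lobular breast cancer, normal fibroblasts (NFs) of the mouse mammary gland were compared with lobular tumor cells, each grown without the other. The comparison used 4 of the 10 RNA sequencing libraries of the series, chosen by their labels: 2 of NFs alone and 2 of tumor cells alone. NFs were sorted from glands of 8-week-old mTmG mice, whose cells are red until Cre recombinase turns them green, and were split by the surface protein CD26 into CD26- and CD26+ cells. CD26+ NFs were turned green with an adenovirus that carries Cre, and both subsets, in equal parts, shared 1 gel of collagen and basement membrane extract (BME). Sorting by color then gave 1 library of each subset. Virus and subset therefore cannot be told apart, and the NF libraries share a gel and, as glands of several mice were usually pooled, donors. Tumor cells were 2 cell lines, 13-MCB-17 and 10-SJK-221, in 1 gel each, from mice in which Cre under the Wap promoter, active in secretory mammary epithelium, deletes floxed Cdh1. Cdh1 encodes E-cadherin, whose loss defines invasive lobular carcinoma (ILC). The donors of NFs and of tumor cells were all on an FVB/n background. All gels were kept for 7 days. NFs were primary cells after a short culture on collagen-coated plates, while tumor cells were established lines selected for EpCAM and against PDGFRβ, so cell type, donor genotype, gel, transformation and time in culture cannot be told apart.

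Fibroblasts are the matrix builders of the mammary stroma. They secrete fibrillar collagens, proteoglycans, growth factors and chemokines, and they carry receptors for platelet-derived growth factors (PDGFs). Mammary epithelial cells rest on a basement membrane, are joined by tight junctions and desmosomes, are strengthened by keratins, and talk to the stroma through ligands whose receptors often sit on the other cell. No gel used here held both cell types.

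The 4 libraries held 14247600 to 18408940 counts, and values are CPM, counts scaled by each library's total to a common size. A count of 0 allows a level of up to 3 counts, or 0.163 to 0.211 CPM, which is the floor used for every fold given as a lower bound. Such a bound sets the mean CPM of the higher group against the mean floor of the other. Where the 2 libraries of the higher group differ, it need not hold for the lower of them. Pairs of values are in the order CD26- then CD26+ for NFs, and 13-MCB-17 then 10-SJK-221 for tumor cells. Fold changes are log2, NFs over tumor cells. The SE beside them was worked back from the test, as the absolute fold change over the square root of its F statistic. Cdh1 (ENSMUSG00000000303, chromosome 8, 106603351 to 106670246) had 0 counts in both NF libraries and 239 and 269 CPM in tumor cells. As a count per gene does not resolve exons, the deletion could not be checked. Epcam and Pdgfrb, whose proteins were used to choose the cells, went with the labels: Epcam had 0 counts in both NF libraries and 432 and 409 CPM in tumor cells. Pdgfrb had 1043 and 764 CPM in NFs and 0 counts in both tumor libraries. Dpp4, which encodes CD26, was near 0 in all libraries, with 0 and 0.281 CPM in NFs and 0 and 0.0636 CPM in tumor cells.

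Of 14404 genes tested with edgeR's quasi-likelihood test, 6799 (47.2%) differed between the cell types at a Benjamini-Hochberg adjusted p under 0.05. They split into 3735 genes higher in NFs (25.9% of those tested) and 3064 higher in tumor cells (21.3%). A change of over 4-fold was called for 2382 genes (16.5%) higher in NFs and 1587 (11%) higher in tumor cells. The median log2 fold change (NFs over tumor cells) of all genes tested was 0.05, and -0.11 when only library totals were used for scaling. Under that scaling 3323 genes were higher in NFs and 3677 in tumor cells, so which side was larger depended on the scaling. CPM of the groups did not overlap for 11276 genes (78.3%), including all 6799 called genes. Genes at 10 CPM or more in both libraries of one type and at 3 counts or fewer in each library of the other numbered 469 in NFs (3.26% of those tested) and 136 in tumor cells (0.944%). With 2 libraries a group, p-values measure only the spread between NF subsets of 1 gel and between 2 tumor lines. The count toward tumor cells fell to 1955 without the CD26+ NF library. The member counts below are to be read against these shares. Among the 20 genes at both ends of the fitted fold changes, 10 at each end with a mean of at least 50 CPM in the higher group, 3 belong to none of the gene lists. Svep1, an adhesion protein of the matrix, had 1476 and 853 CPM in NFs and 0 counts in both tumor libraries (at least 6582-fold higher in NFs, adjusted p = 1.8e-04). Wfdc2, a secreted protein of epithelia, had 0 counts in both NF libraries and 693 and 819 CPM in tumor cells (at least 3809-fold higher in tumor cells, adjusted p = 9.3e-05). Dynap had 0 counts in both NF libraries and 418 and 581 CPM in tumor cells (at least 2517-fold higher in tumor cells, adjusted p = 1.0e-04).

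**Figure D1:**
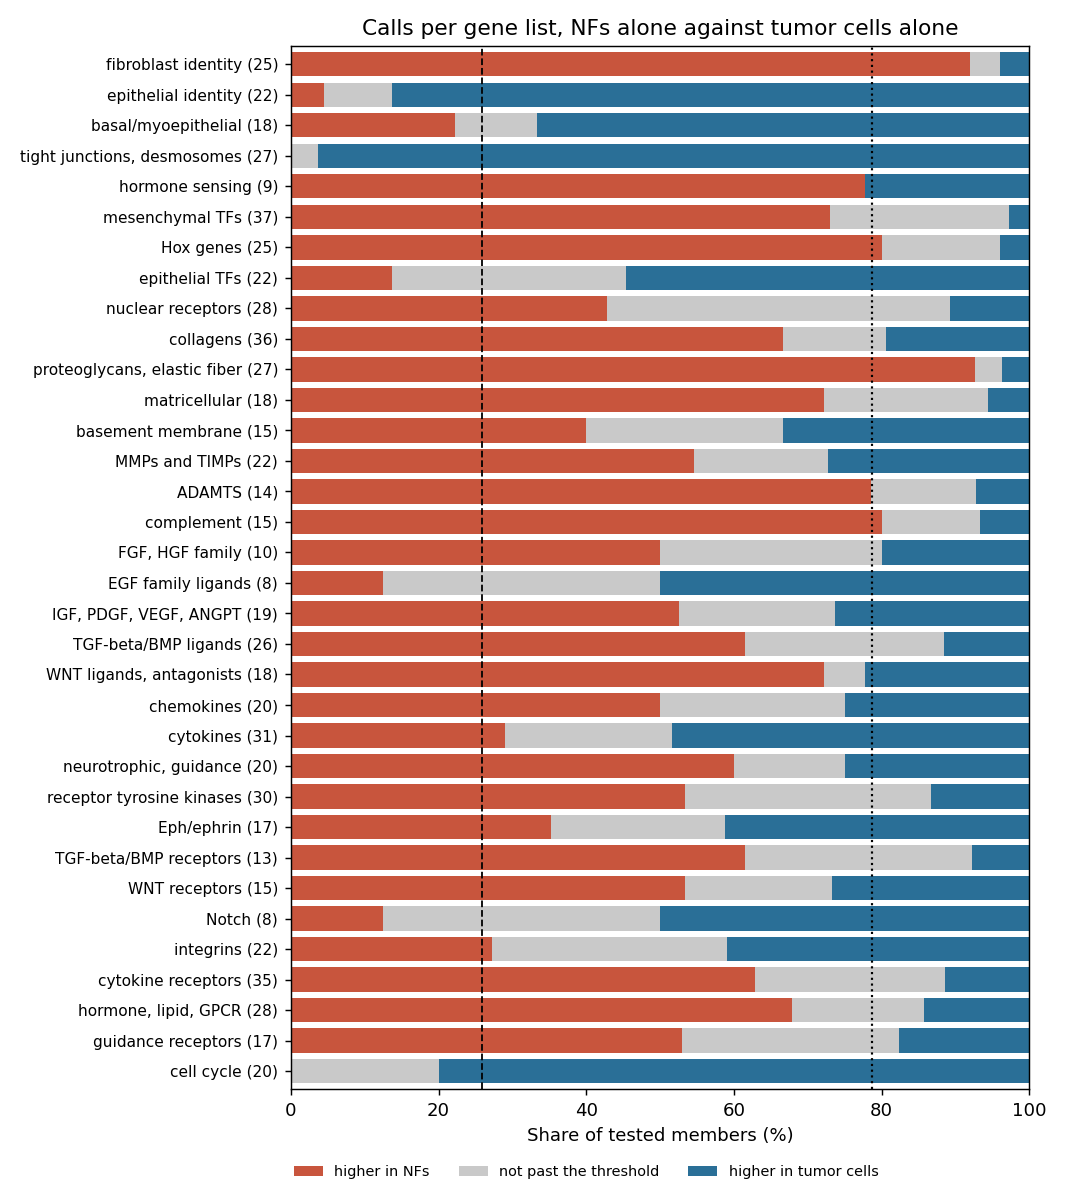
Share of tested members (x axis, percent) of each gene list (y axis, number tested in brackets) that was higher in NFs (red), higher in tumor cells (blue) or past no threshold (gray), by edgeR adjusted p under 0.05. The dashed line is the share of all 14404 genes higher in NFs (25.9%) and the dotted line, read from the right, the share higher in tumor cells (21.3%). Fibroblast, proteoglycan and Hox lists are mostly red, junction, epithelial and cell cycle lists mostly blue.

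The NF libraries carried the fibroblast program almost in full. Of 25 fibroblast identity genes, all of which were tested, 23 were higher in NFs and 1 in tumor cells (median 10.59, or 9.10 with genes at 0 counts in a group set at their bound). Col3a1, the chain of type III collagen, had 35673 and 34521 CPM in NFs and 0.326 and 0.127 CPM in tumor cells. Lum, the keratan sulfate proteoglycan lumican, had 577 and 609 CPM in NFs and 0 counts in both tumor libraries (at least 3352-fold higher in NFs, adjusted p = 9.3e-05). The surface protein Thy1 had 223 and 456 CPM in NFs and 0 counts in both tumor libraries. The PDGF receptor gene Pdgfra had 789 and 666 CPM in NFs and 67.7 and 35.6 CPM in tumor cells. Thy1 was the least even of the 4 in NFs, and Pdgfra was the one above 1 CPM in tumor cells (log2 fold change 3.97 ± 0.41, adjusted p = 8.8e-04). Vimentin (Vim), a filament protein often read as mesenchymal, was also abundant in tumor cells, with 2277 and 2393 CPM in NFs and 1195 and 1297 CPM in tumor cells (log2 fold change 1.07 ± 0.22, adjusted p = 0.011). S100a4, also named FSP1, had 11.2 and 9.12 CPM in NFs and 8.53 and 9.16 CPM in tumor cells and passed no threshold (log2 fold change 0.37 ± 0.32, adjusted p = 0.38). Another gene overlaps its exons over more than 20% of their length. Ly6a, which encodes the surface protein Sca-1, was the single member higher in tumor cells, with 213 and 332 CPM in NFs and 492 and 603 CPM in tumor cells (log2 fold change -0.85 ± 0.26, adjusted p = 0.038). The Ly6a call was lost without the filter on low counts (adjusted p = 0.058), with all 10 libraries in 1 fit (0.11), without the CD26- NF library (0.12) and without the 10-SJK-221 library (0.093). Vim, S100a4 and Thy1 were named after their values were seen.

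Most epithelial identity genes were higher in tumor cells. Of 25 epithelial identity genes, 22 were tested, and 1 was higher in NFs and 19 in tumor cells (median -9.51, or -8.68 with genes at 0 counts in a group set at their bound). Krt18 (ENSMUSG00000023043, chromosome 15, 102028180 to 102032027), a keratin of simple epithelia, had 0 counts in both NF libraries and 981 and 1392 CPM in tumor cells, at least 5979.7-fold higher in tumor cells (adjusted p = 1.0e-04). Cldn4, a claudin of tight junctions, had 0 counts in both NF libraries and 459 and 339 CPM in tumor cells (at least 2011-fold higher, adjusted p = 1.2e-04). Esrp1, which sets epithelial splicing, had 0 counts in both NF libraries and 213 and 294 CPM in tumor cells (at least 1279-fold higher, adjusted p = 1.1e-04). All 3 were high in both lines and not counted once in NFs. Per kilobase of exon, the mean levels of the keratins on the epithelial and basal lists ran in tumor cells from Krt18 (826 CPM per kilobase) over Krt8 (534), Krt19 (262), Krt7 (127), Krt14 (24.2) and Krt17 (3.19) down to Krt5 (2.54). Krt19 was uneven between the lines, at 309 and 664 CPM. Aldh1a3, an enzyme of retinoic acid synthesis on the epithelial list, was the single member higher in NFs, with 22.2 and 5.47 CPM in NFs and 0.760 and 0.127 CPM in tumor cells (log2 fold change 5.08 ± 1.04, adjusted p = 0.01). The Aldh1a3 call was lost without the CD26- NF library (adjusted p = 0.055).

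Cell junction genes were higher in tumor cells almost throughout. Of 30 genes of tight junctions, desmosomes and cell polarity, 27 were tested, and 26 were higher in tumor cells and 0 in NFs by edgeR (median -7.77, or -6.02 with genes at 0 counts in a group set at their bound). Pkp1, a desmosomal plaque protein, had 0 counts in both NF libraries and 594 and 639 CPM in tumor cells (at least 3106-fold higher in tumor cells, adjusted p = 9.3e-05). Cgn, the tight junction protein cingulin, had 0 counts in both NF libraries and 88.7 and 62.6 CPM in tumor cells (at least 381-fold higher, adjusted p = 2.0e-04). The desmosomal linker Dsp had 0 and 0.491 CPM in NFs and 717 and 847 CPM in tumor cells. The member that passed no threshold was Dsc2, with 0 and 0.281 CPM in NFs and 0.815 and 2.54 CPM in tumor cells (adjusted p = 0.053). Of the cadherins and catenins, 9 were tested, and 5 were higher in NFs and 2 in tumor cells. Cdh11, the cadherin of mesenchymal cells, had 1155 and 675 CPM in NFs and 0.109 and 0.0636 CPM in tumor cells, 10578 times (95% counting interval 3619 to 51298) higher in NFs. Cdh3, or P-cadherin, which basal epithelial cells usually carry, was an NF gene here, with 17.5 and 13.6 CPM in NFs and 0 and 0.127 CPM in tumor cells. So was Ctnna2, with 8.94 and 5.05 CPM in NFs and 0 counts in both tumor libraries (at least 39.6-fold higher, adjusted p = 0.002). N-cadherin (Cdh2) was present in both, with 72.7 and 58.6 CPM in NFs and 21.3 and 34.0 CPM in tumor cells (log2 fold change 1.43 ± 0.29, adjusted p = 0.0097). Ctnna1, the catenin that ties E-cadherin to actin, was higher in tumor cells, with 239 and 205 CPM in NFs and 608 and 746 CPM in tumor cells (log2 fold change -1.44 ± 0.23, adjusted p = 0.0044). Beta-catenin (Ctnnb1) had 573 and 675 CPM in NFs and 909.8 and 869.6 CPM in tumor cells and did not pass the threshold (adjusted p = 0.21).

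Promoters of 4 of these genes are shown because they hold the E-box CACCTG, read CAGGTG on the other strand. ZEB and SNAI family repressors are known to bind this E-box. The window ran from 250 bases before to 50 bases after a gene's start (RefSeq, GRCm38.p6), and the motif was searched on both strands. It lay in 6640 of 32851 promoters (20.2%). It lay in 11 of 18 promoters of the epithelial identity genes (61.1%, 15 of 25 genes matched) and in 17 of 27 promoters of the junction genes (63.0%, 18 of 30 genes matched), lists that share genes. It was lower for the epithelial transcription factors, at 7 of 21 promoters (33.3%, 16 of 30 genes matched). The share was 15% of 20 promoters for fibroblast identity genes, 13.2% of 38 for collagens and 8.57% of 35 for mesenchymal transcription factors. A match is a description of letters and no evidence of binding. Capitals mark the motif. Epcam, Cldn4 and Cldn7 hold 2 copies and Krt18 holds 1, and another listed start of Cldn7 holds none. Epcam lies at chr17:87635729-87636028 (plus strand), Krt18 at chr15:102027966-102028265 (plus), Cldn4 at chr5:134946885-134947184 (minus) and Cldn7 at chr11:69965171-69965470 (plus).
Epcam: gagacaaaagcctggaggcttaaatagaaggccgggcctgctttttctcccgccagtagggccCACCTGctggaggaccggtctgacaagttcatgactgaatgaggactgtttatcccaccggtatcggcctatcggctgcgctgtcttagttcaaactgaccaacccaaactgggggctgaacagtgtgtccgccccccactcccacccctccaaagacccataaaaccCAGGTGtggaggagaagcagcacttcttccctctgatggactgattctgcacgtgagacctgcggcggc
Krt18: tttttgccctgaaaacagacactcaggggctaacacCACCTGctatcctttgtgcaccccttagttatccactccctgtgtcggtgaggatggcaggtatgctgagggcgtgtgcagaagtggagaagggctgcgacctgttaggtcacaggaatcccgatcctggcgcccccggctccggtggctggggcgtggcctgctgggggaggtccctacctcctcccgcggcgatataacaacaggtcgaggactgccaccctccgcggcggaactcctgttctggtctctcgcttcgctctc
Cldn4: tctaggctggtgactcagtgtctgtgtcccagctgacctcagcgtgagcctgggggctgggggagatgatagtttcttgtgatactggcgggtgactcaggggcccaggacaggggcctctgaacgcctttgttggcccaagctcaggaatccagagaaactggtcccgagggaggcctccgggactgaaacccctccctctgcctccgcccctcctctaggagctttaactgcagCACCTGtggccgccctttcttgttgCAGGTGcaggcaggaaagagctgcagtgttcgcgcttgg
Cldn7: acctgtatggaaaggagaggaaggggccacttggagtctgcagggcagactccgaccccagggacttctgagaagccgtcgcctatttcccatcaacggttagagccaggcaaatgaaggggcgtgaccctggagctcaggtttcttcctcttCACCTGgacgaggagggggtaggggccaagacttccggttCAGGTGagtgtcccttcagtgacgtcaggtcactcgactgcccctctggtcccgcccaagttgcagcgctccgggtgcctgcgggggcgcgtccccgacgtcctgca
Of the factors known to bind this E-box, 4 were looked up. All 4 were higher in NFs, and all 4 were also read in tumor cells. Snai2 had 50.7 and 47.8 CPM in NFs and 1.79 and 1.85 CPM in tumor cells (log2 fold change 4.92 ± 0.26, adjusted p = 1.1e-04). Zeb1 had 134 and 92.9 CPM in NFs and 11.1 and 8.40 CPM in tumor cells (log2 fold change 3.70 ± 0.33, adjusted p = 5.0e-04). Zeb2 had 269 and 151 CPM in NFs and 77.5 and 37.3 CPM in tumor cells (log2 fold change 2.04 ± 0.48, adjusted p = 0.016). Snai1 had 75.3 and 83.6 CPM in NFs and 59.2 and 38.9 CPM in tumor cells (log2 fold change 0.85 ± 0.27, adjusted p = 0.043). These 4 genes, the motif and the promoters were chosen after values were seen. Whether the 4 calls hold under other settings was not examined, and that of Snai1 was near the threshold.

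Basal, or myoepithelial, genes divided between the cell types. Of 18 tested, 4 were higher in NFs and 12 in tumor cells (median -4.81). The 4 members higher in NFs were Acta2, Tagln, Cnn1 and Mylk, all known from contractile cells. Smooth muscle actin (Acta2) had 574 and 343 CPM in NFs and 0.0543 and 0.127 CPM in tumor cells, 5296 times (95% counting interval 1812 to 25684) higher in NFs. Calponin (Cnn1) had 30.8 and 23.2 CPM in NFs and 0.217 and 0.318 CPM in tumor cells (log2 fold change 6.80 ± 0.43, adjusted p = 1.6e-04). Tagln, another actin-binding protein, had 376 and 200.03 CPM in NFs and 1.195 and 1.34 CPM in tumor cells, although other genes overlap most of its exons. Myh11, the myosin of smooth muscle, had 3.105 and 2.74 CPM in NFs and 1.30 and 1.21 CPM in tumor cells and did not pass the threshold (adjusted p = 0.051). Keratins and integrins were among the 12 members higher in tumor cells. Krt14 had 0 counts in both NF libraries and 34.1 and 51.0 CPM in tumor cells (at least 214-fold higher in tumor cells, adjusted p = 2.7e-04). The basal transcription factor Trp63, on this list and on the epithelial factor list, had 1.92 and 4.14 CPM in NFs and 23.1 and 41.0 CPM in tumor cells (log2 fold change -3.25 ± 0.46, adjusted p = 0.0029). Dst, a linker of hemidesmosomes, had 473 and 227 CPM in NFs and 349 and 352 CPM in tumor cells and did not pass the threshold (adjusted p = 0.73).

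The progesterone and estrogen receptor genes were read in NFs and not in tumor cells. Of 9 tested genes of hormone-sensing mammary cells, 7 were higher in NFs and 2 in tumor cells (median 9.27, or 5.35 with genes at 0 counts in a group set at their bound). The progesterone receptor (Pgr) had 5.03 and 9.41 CPM in NFs and 0 counts in both tumor libraries (at least 40.8-fold higher in NFs, adjusted p = 0.0017). The estrogen receptor (Esr1) had 3.73 and 5.33 CPM in NFs and 0 counts in both tumor libraries (at least 25.6-fold higher, adjusted p = 0.0018). Tnfsf11, or RANKL, the paracrine signal that progesterone induces in the gland, had 74.0 and 48.6 CPM in NFs and 0 counts in both tumor libraries (at least 346-fold higher in NFs, adjusted p = 2.7e-04). The tumor cells did carry Foxa1, a pioneer factor of luminal cells, with 0 counts in both NF libraries and 19.9 and 26.2 CPM in tumor cells (at least 116-fold higher, adjusted p = 4.1e-04). They also carried amphiregulin (Areg), with 1.30 and 1.75 CPM in NFs and 383 and 331 CPM in tumor cells (log2 fold change -7.71 ± 0.29, adjusted p = 8.4e-05). Of 15 genes of milk and secretion, 4 were tested, 3 of them higher in tumor cells and 0 in NFs by edgeR. The butyrophilin gene Btn1a1 had 0 counts in both NF libraries and 25.5 and 24.9 CPM in tumor cells (at least 127-fold higher, adjusted p = 3.1e-04). Lipocalin Lcn2 had 0.497 and 7.16 CPM in NFs and 436 and 476 CPM in tumor cells (log2 fold change -6.78 ± 1.04, adjusted p = 0.0038). The caseins, Wap and Lalba were under 1 CPM in every library. Wap is the gene whose promoter drives Cre in this model.

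**Figure D2:**
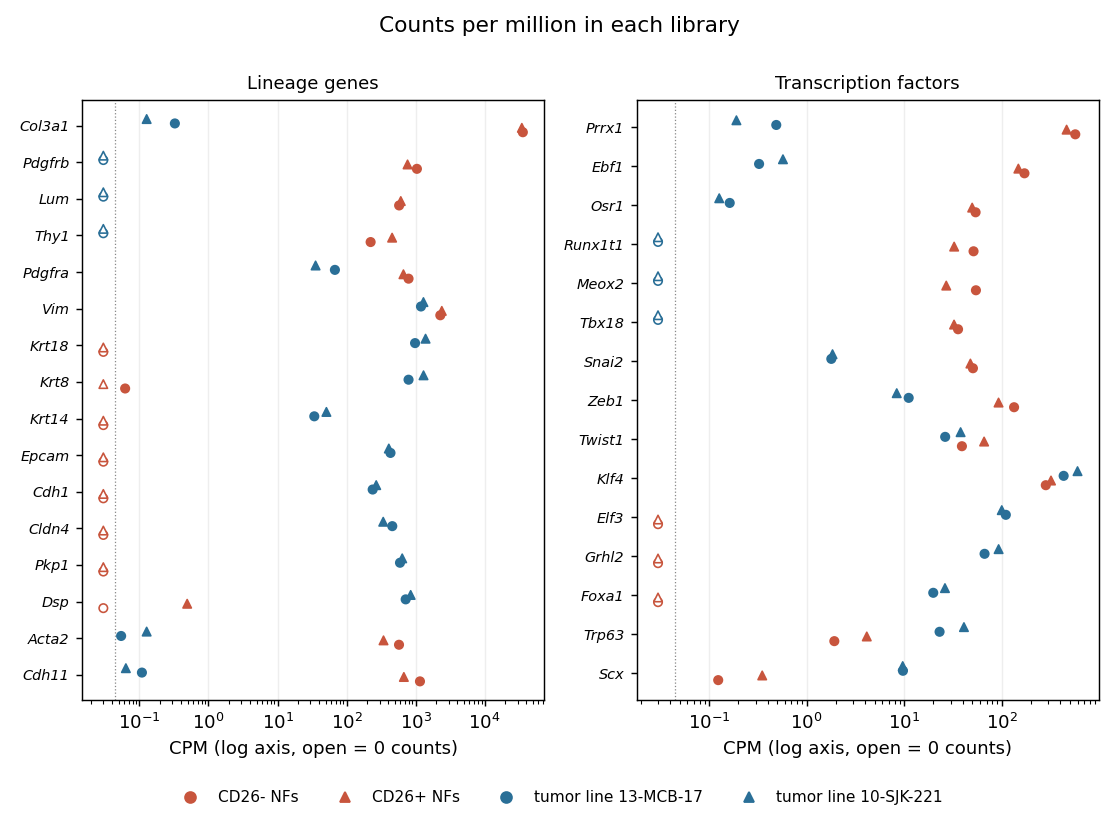
Levels in CPM (x axis, log scale) of 16 lineage genes and 15 transcription factor genes (y axis) in CD26- NFs (red circles), CD26+ NFs (red triangles), line 13-MCB-17 (blue circles) and line 10-SJK-221 (blue triangles). Open symbols left of the dotted line are libraries with 0 counts. Red and blue symbols stand far apart for most genes, for example Pdgfrb and Krt18, and close together for Vim, Twist1 and Klf4.

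Most mesenchymal transcription factors tested were higher in NFs. Of 37 tested, 27 were higher in NFs and 1 in tumor cells (median 4.70, or 3.70 with genes at 0 counts in a group set at their bound). Runx1t1, a transcriptional co-repressor, had 51.5 and 32.6 CPM in NFs and 0 counts in both tumor libraries (at least 238-fold higher, adjusted p = 3.7e-04). Meox2, a homeobox factor of mesoderm, had 54.5 and 27.0 CPM in NFs and 0 counts in both tumor libraries (at least 230.3-fold higher, adjusted p = 7.7e-04). Tbx18, a T-box factor of mesenchyme, had 35.7 and 32.5 CPM in NFs and 0 counts in both tumor libraries (at least 193-fold higher, adjusted p = 1.9e-04), with over 20% of its exon length overlapped by another gene. Prrx1, a homeobox factor of mesenchyme, reached 568 and 463 CPM in NFs and 0.489 and 0.191 CPM in tumor cells (log2 fold change 10.66 ± 0.47, adjusted p = 9.3e-05). A pair of well-known members was less distinct, both named after their values were seen. Twist1, a driver of mesenchymal change, had 39.1 and 66.0 CPM in NFs and 26.3 and 37.9 CPM in tumor cells and did not pass the threshold (log2 fold change 0.87 ± 0.30, adjusted p = 0.057). Klf4 did not pass it either, with 283 and 320.3 CPM in NFs and 432 and 599 CPM in tumor cells (log2 fold change -0.61 ± 0.23, adjusted p = 0.073). Scx, the tendon factor scleraxis, was the single member higher in tumor cells, with 0.124 and 0.351 CPM in NFs and 9.72 and 9.67 CPM in tumor cells (log2 fold change -5.18 ± 0.58, adjusted p = 0.0012). A further member, making 2, was called toward tumor cells without the CD26+ NF or the 10-SJK-221 library.

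Of 22 epithelial transcription factors tested, 3 were higher in NFs and 12 in tumor cells (median -2.69, or -2.22 with genes at 0 counts in a group set at their bound). The leading tumor genes were Elf3, an ETS factor of epithelia, with 0 counts in both NF libraries and 110.3 and 100.2 CPM in tumor cells (at least 530.4-fold higher, adjusted p = 1.1e-04) and the grainyhead factor Grhl2. Grhl2 had 0 counts in both NF libraries and 66.8 and 93.0 CPM in tumor cells (at least 403-fold higher, adjusted p = 1.5e-04). Gata3, the main luminal factor of the gland, was low throughout, with 0.621 and 2.25 CPM in NFs and 5.05 and 4.77 CPM in tumor cells (log2 fold change -1.65 ± 0.64, adjusted p = 0.081). Elf5, Spdef and Sox10 were under 1 CPM in every library. Against the list, 3 factors known from mammary epithelium were higher in NFs, among them Stat5a and Id4. Stat5a, which carries the prolactin signal, had 20.3 and 20.4 CPM in NFs and 0.978 and 1.02 CPM in tumor cells (log2 fold change 4.50 ± 0.34, adjusted p = 2.9e-04). Id4 had 30.4 and 21.3 CPM in NFs and 2.82 and 8.59 CPM in tumor cells (log2 fold change 2.37 ± 0.55, adjusted p = 0.015). The Id4 call was lost without the CD26- NF library (adjusted p = 0.089). Runx1 and Sox9 did not pass the threshold. Sox9 had 59.5 and 63.4 CPM in NFs and 61.8 and 90.9 CPM in tumor cells (adjusted p = 0.63). Runx1 had 255 and 165 CPM in NFs and 211 and 197 CPM in tumor cells (adjusted p = 0.57). Of 28 nuclear receptors tested, 12 were higher in NFs and 3 in tumor cells. The tumor count fell to 1 without the CD26+ NF library. On the NF side, the orphan receptor Rora had 97.8 and 79.5 CPM in NFs and 0.0543 and 0 CPM in tumor cells, 3045 times (95% counting interval 546 to 120306) higher.

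Hox genes, which record position along the body axis, were read from all 4 clusters in NFs and from 1 cluster in tumor cells, apart from 3 counts of Hoxc6. Of 39 Hox genes in the table, 25 were tested, and 20 were higher in NFs and 1 in tumor cells (median 9.79, or 5.23 with genes at 0 counts in a group set at their bound). Hoxb9 had 61.2 and 53.8 CPM in NFs and 0 counts in both tumor libraries (at least 325-fold higher in NFs, adjusted p = 1.3e-04). Hoxc8 had 44.1 and 51.7 CPM in NFs and 0 counts in both tumor libraries (at least 271-fold higher, adjusted p = 1.3e-04). Hoxc10 had 39.7 and 50.04 CPM in NFs and 0 counts in both tumor libraries (at least 254-fold higher, adjusted p = 1.4e-04). In tumor cells the Hoxb and Hoxd clusters had 0 counts throughout, and of the Hoxc cluster Hoxc6 alone was counted (29.4 and 63.0 CPM in NFs and 0 and 0.191 CPM in tumor cells). Tumor cells did read the front of the Hoxa cluster, up to Hoxa7. Hoxa5 had 3.23 and 4.35 CPM in NFs and 3.42 and 3.31 CPM in tumor cells and did not pass the threshold (adjusted p = 0.55). Hox genes lie close together and partly overlap: 7 of 39 share over 20% of their exon length with another gene.

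**Figure D3:**
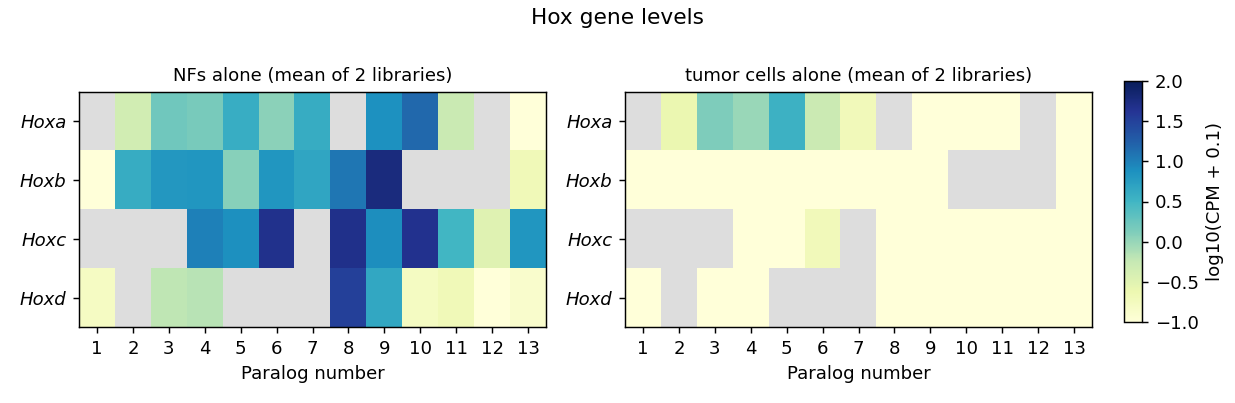
Mean level, as log10(CPM + 0.1) (color), of each Hox gene by cluster (y axis) and paralog number (x axis) in NFs alone and tumor cells alone, with gray where mice have no such gene or no value is given. NFs show values in all 4 clusters, tumor cells in the Hoxa cluster up to Hoxa7 with Hoxc6 at 3 counts in 1 library.

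Collagens took far more of the RNA in NFs than in tumor cells. Collagen genes held 9.13% and 8.43% of all counts in the CD26- and CD26+ NF libraries against 0.583% and 0.482% in 13-MCB-17 and 10-SJK-221. Of 36 collagens tested, 24 were higher in NFs and 7 in tumor cells (median 6.85, or 4.80 with genes at 0 counts in a group set at their bound). The fibrillar chains led: Col5a2 of type V had 3705 and 3543 CPM in NFs and 0 and 0.0636 CPM in tumor cells. Col1a2 of type I had 16363 and 13169.9 CPM in NFs and 0.272 and 0.891 CPM in tumor cells (log2 fold change 14.83 ± 0.71, adjusted p = 9.7e-05). Tumor cells led in the collagens that anchor epithelium. Col17a1, the hemidesmosome collagen, had 0.248 and 0.632 CPM in NFs and 45.5 and 41.9 CPM in tumor cells (log2 fold change -6.48 ± 0.42, adjusted p = 1.7e-04). Col7a1, the anchoring fibril collagen, had 7.39 and 9.48 CPM in NFs and 263 and 143 CPM in tumor cells (log2 fold change -4.44 ± 0.39, adjusted p = 4.9e-04). Col18a1, the source of endostatin, had 100.0 and 205 CPM in NFs and 2006 and 1911 CPM in tumor cells (log2 fold change -3.54 ± 0.38, adjusted p = 0.001). Col4a1, a chain of the type IV collagen of all basement membranes, had 784 and 903 CPM in NFs and 809 and 571 CPM in tumor cells and did not pass the threshold (log2 fold change 0.44 ± 0.26, adjusted p = 0.22).

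Small proteoglycans and elastic fiber genes were almost wholly stromal. Of 27, all tested, 25 were higher in NFs and 1 in tumor cells (median 9.41, or 8.82 with genes at 0 counts in a group set at their bound). Biglycan (Bgn) had 13669 and 9561 CPM in NFs and 0.109 and 0.573 CPM in tumor cells (log2 fold change 15.26 ± 0.80, adjusted p = 1.1e-04). Fibromodulin (Fmod), uneven between the NF subsets, had 686 and 174 CPM in NFs and 0 counts in both tumor libraries (at least 2431-fold higher, adjusted p = 0.0016). Ltbp1, which tethers latent TGF-beta to the matrix, was the exception, with 54.4 and 26.4 CPM in NFs and 423 and 311 CPM in tumor cells (log2 fold change -3.01 ± 0.44, adjusted p = 0.0032). Of 18 matricellular genes, 13 were higher in NFs and 1 in tumor cells (median 4.02). Thrombospondin 2 (Thbs2) had 2734 and 2289.7 CPM in NFs and 0 counts in both tumor libraries (at least 14199-fold higher in NFs, adjusted p = 9.7e-05). Periostin (Postn) had 1792 and 1885 CPM in NFs and 0.163 and 0.573 CPM in tumor cells (log2 fold change 12.47 ± 0.54, adjusted p = 9.3e-05). Osteopontin (Spp1) was the single member higher in tumor cells, with 1595 and 2449.8 CPM in NFs and 4385 and 4621 CPM in tumor cells (log2 fold change -1.002 ± 0.28, adjusted p = 0.029). The Spp1 call was lost without the CD26- NF library (adjusted p = 0.081). Fibronectin (Fn1) was among the most counted genes of every library, with 15160.3 and 9339 CPM in NFs and 10093 and 13995 CPM in tumor cells (log2 fold change 0.21 ± 0.37, adjusted p = 0.68). Ccn3 divided the tumor lines, with 71.5 and 2.29 CPM in 13-MCB-17 and 10-SJK-221 against 298 and 479 CPM in NFs, and did not pass the threshold (adjusted p = 0.077).

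Both cell types read basement membrane genes, but different laminin chains. Of 15 genes, all tested, 6 were higher in NFs and 5 in tumor cells (median 0.20). The alpha chain Lama2 had 43.7 and 64.2 CPM in NFs and 0 counts in both tumor libraries (at least 305-fold higher in NFs, adjusted p = 1.7e-04). The linker nidogen Nid1 had 1850.3 and 1422 CPM in NFs and 0.0543 and 0.254 CPM in tumor cells (log2 fold change 13.53 ± 0.58, adjusted p = 9.3e-05). The other nidogen, Nid2, had 368 and 464 CPM in NFs and 0 counts in both tumor libraries (at least 2353-fold higher, adjusted p = 9.3e-05). The alpha and beta chains of laminin-332, the laminin of hemidesmosomes, were tumor genes. Lama3 had 0.497 and 0.702 CPM in NFs and 1392 and 1389 CPM in tumor cells (log2 fold change -11.01 ± 0.34, adjusted p = 8.3e-05). Lamb3 had 0.248 and 0.421 CPM in NFs and 853 and 678 CPM in tumor cells (log2 fold change -10.99 ± 0.40, adjusted p = 8.3e-05). The beta and gamma chains common to most laminins overlapped between the types and did not pass the threshold. Lamb1 had 958 and 888.01 CPM in NFs and 904 and 898 CPM in tumor cells (log2 fold change 0.20 ± 0.22, adjusted p = 0.48). Lamc1 had 431 and 462 CPM in NFs and 618 and 419 CPM in tumor cells (log2 fold change -0.06 ± 0.27, adjusted p = 0.87). Integrins, the receptors for these proteins, divided likewise. Of 22 tested, 6 were higher in NFs and 9 in tumor cells (median -0.65). Itga11, a collagen receptor subunit, had 438 and 318 CPM in NFs and 0 counts in both tumor libraries (at least 2136-fold higher in NFs, adjusted p = 1.2e-04). Itga1, another one, had 124 and 53.2 CPM in NFs and 0.217 and 0.254 CPM in tumor cells (log2 fold change 8.69 ± 0.68, adjusted p = 3.2e-04). Subunits of laminin-332 receptors were tumor genes. Itga3 had 1.99 and 1.82 CPM in NFs and 1405 and 1629 CPM in tumor cells (log2 fold change -9.46 ± 0.31, adjusted p = 8.3e-05). Itgb4 had 1.24 and 1.19 CPM in NFs and 568 and 721 CPM in tumor cells (log2 fold change -8.87 ± 0.30, adjusted p = 8.3e-05). Itgb6, the epithelial partner of the alpha v chain, had 0 counts in both NF libraries and 12.7 and 10.6 CPM in tumor cells (at least 58.7-fold higher in tumor cells, adjusted p = 8.9e-04). The shared beta chain Itgb1 had 802 and 761 CPM in NFs and 867 and 876 CPM in tumor cells and did not pass the threshold (log2 fold change 0.01 ± 0.21, adjusted p = 0.98). Itga6, with 2.48 and 2.04 CPM in NFs and 689 and 684 CPM in tumor cells, encodes CD49f. The NF sort gated CD49f out, and that gate and the cell type cannot be told apart here.

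**Figure D4:**
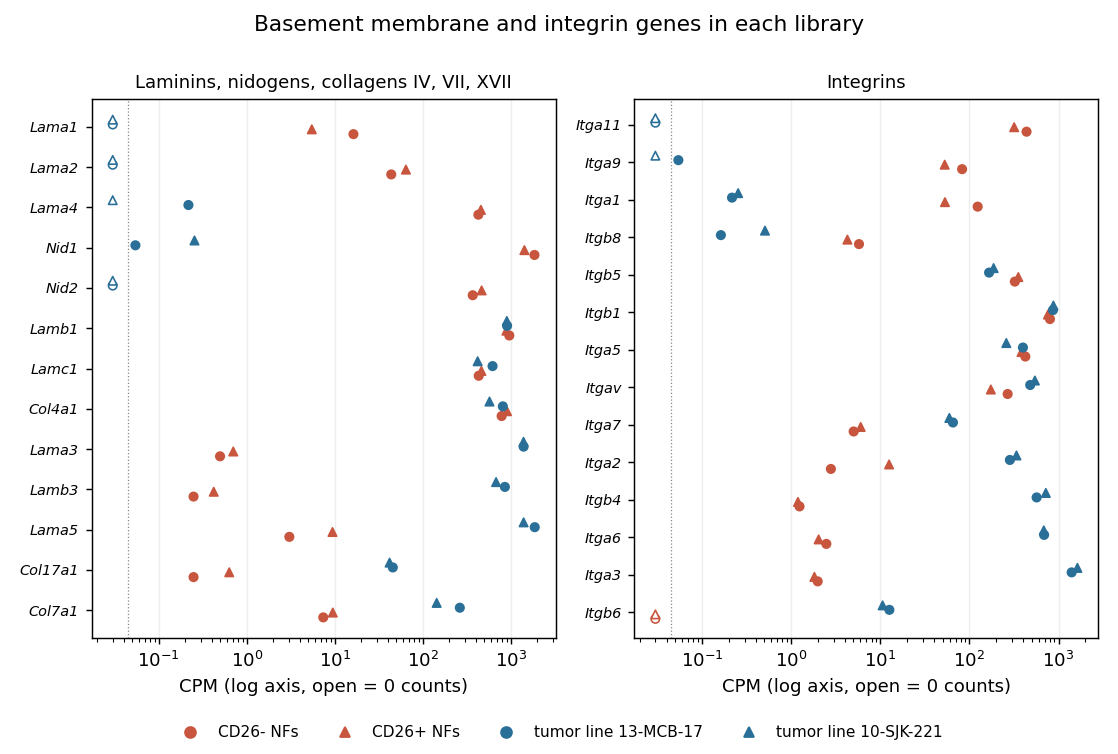
Levels in CPM (x axis, log scale) of laminin, nidogen and collagen genes (left) and integrin genes (right) in the 4 libraries, with symbols as in the plot of lineage genes and open symbols for 0 counts. Lama3 and Lamb3 lie on the tumor side and Lama2, Lama4 and Nid2 on the NF side, while Lamb1, Lamc1, Col4a1 and Itgb1 overlap or nearly so.

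Matrix proteases and complement factors were mostly higher in NFs. Of 22 metalloproteinases (MMPs) and their inhibitors tested, 12 were higher in NFs and 6 in tumor cells. The tumor count fell to 3 without either NF library. The gelatinase Mmp2 had 2919 and 4492 CPM in NFs and 3.97 and 2.74 CPM in tumor cells (log2 fold change 10.25 ± 0.46, adjusted p = 9.3e-05). Mmp16 had 13.8 and 10.5 CPM in NFs and 0 counts in both tumor libraries (at least 68.5-fold higher in NFs, adjusted p = 8.0e-04). On the tumor side, Mmp24 had 0.124 and 0.211 CPM in NFs and 15.9 and 10.1 CPM in tumor cells (log2 fold change -6.08 ± 0.59, adjusted p = 7.2e-04). Mmp1b had 0.186 and 0 CPM in NFs and 22.3 and 28.8 CPM in tumor cells, 256 times (95% counting interval 87.3 to 1243) higher in tumor cells. Mmp1b has a near-identical neighbor, so its reads may be split. The gelatinase Mmp9 had 12.9 and 18.6 CPM in NFs and 199.7 and 106 CPM in tumor cells (log2 fold change -3.14 ± 0.39, adjusted p = 0.0018). The stromelysin Mmp3 had 1047 and 780.1 CPM in NFs and 831 and 864 CPM in tumor cells without a call (adjusted p = 0.41). Of 14 ADAMTS proteases tested, 11 were higher in NFs and 1 in tumor cells. Adamts2, which trims procollagen, had 1102 and 845 CPM in NFs and 0 counts in both tumor libraries (at least 5500.3-fold higher in NFs, adjusted p = 1.0e-04). Adamts14 had 21.5 and 24.3 CPM in NFs and 80.7 and 98.1 CPM in tumor cells (log2 fold change -1.80 ± 0.20, adjusted p = 0.0011). Of 15 complement genes tested, 12 were higher in NFs and 1 in tumor cells (median 5.22, or 4.97 with genes at 0 counts in a group set at their bound). The terminal component C7 had 101 and 146 CPM in NFs and 0 counts in both tumor libraries (at least 699-fold higher in NFs, adjusted p = 1.2e-04). The C1 inhibitor Serping1 had 2143 and 1284 CPM in NFs and 1.68 and 0.763 CPM in tumor cells (log2 fold change 10.59 ± 0.63, adjusted p = 1.4e-04). C3, the central component, was the exception, with 258 and 755 CPM in NFs and 3212 and 3971 CPM in tumor cells (log2 fold change -2.69 ± 0.50, adjusted p = 0.0077).

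Growth factors and their receptor tyrosine kinases were split by family. Of 10 FGF and HGF family ligands tested, 5 were higher in NFs and 2 in tumor cells. Fgf10, which drives epithelial branching, had 125 and 149 CPM in NFs and 0 counts in both tumor libraries (at least 775-fold higher in NFs, adjusted p = 9.6e-05). Hepatocyte growth factor (Hgf) had 103 and 88.9 CPM in NFs and 0 and 0.0636 CPM in tumor cells, 3295 times (95% counting interval 591 to 130209) higher in NFs. The HGF receptor gene Met was higher in the tumor cells, with 4.97 and 6.32 CPM in NFs and 318 and 254 CPM in tumor cells (log2 fold change -5.51 ± 0.27, adjusted p = 1.0e-04). Fgfr2, which in its epithelial splice form receives Fgf7 and Fgf10, was instead higher in NFs, with 70.3 and 74.0 CPM in NFs and 0.489 and 0 CPM in tumor cells (log2 fold change 8.23 ± 0.73, adjusted p = 5.2e-04). Splice forms cannot be read from these counts. Of 8 EGF family ligands tested, 1 was higher in NFs and 4 in tumor cells. Transforming growth factor alpha (Tgfa) had 0.373 and 3.37 CPM in NFs and 98.2 and 181 CPM in tumor cells (log2 fold change -6.10 ± 0.84, adjusted p = 0.0026). Hbegf had 24.7 and 27.7 CPM in NFs and 462 and 530.3 CPM in tumor cells (log2 fold change -4.08 ± 0.22, adjusted p = 1.1e-04). Epiregulin (Ereg) had 314 and 134 CPM in NFs and 1.79 and 1.85 CPM in tumor cells (log2 fold change 7.12 ± 0.57, adjusted p = 3.7e-04). Their receptor Egfr was higher in NFs, with 663 and 537 CPM in NFs and 33.8 and 24.4 CPM in tumor cells (log2 fold change 4.53 ± 0.32, adjusted p = 2.2e-04). Erbb3 was higher in tumor cells, with 0.186 and 0 CPM in NFs and 86.4 and 82.1 CPM in tumor cells, 854 times (95% counting interval 292 to 4144) higher.

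Of 19 IGF, PDGF, VEGF and angiopoietin genes tested, 10 were higher in NFs and 5 in tumor cells (median 3.39). Insulin-like growth factor 1 (Igf1) had 2106 and 1029 CPM in NFs and 0 counts in both tumor libraries (at least 8861-fold higher in NFs, adjusted p = 2.7e-04). Igfbp5, which binds it, had 51.7 and 279.6 CPM in NFs and 0 counts in both tumor libraries (at least 936-fold higher, adjusted p = 0.0029). The receptor Igf1r had 118 and 79.7 CPM in NFs and 126 and 160.1 CPM in tumor cells and no call (adjusted p = 0.33). Pdgfb, a ligand of Pdgfrb, had 0 counts in both NF libraries and 31.1 and 37.3 CPM in tumor cells (at least 173-fold higher in tumor cells, adjusted p = 2.2e-04). Placental growth factor (Pgf) had 0.0621 and 0.912 CPM in NFs and 54.6 and 108 CPM in tumor cells (log2 fold change -7.25 ± 0.79, adjusted p = 0.0011). Igfbp3 differed widely between the tumor lines, with 92.8 and 364 CPM in NFs and 0.0543 and 49.0 CPM in tumor cells, and did not pass the threshold (adjusted p = 0.17). Of 30 receptor tyrosine kinases tested, 16 were higher in NFs and 4 in tumor cells (median 1.00). The tumor count reached 7 under scaling by library totals. Ror2, a WNT5A receptor, had 48.1 and 74.8 CPM in NFs and 0 counts in both tumor libraries (at least 347-fold higher in NFs, adjusted p = 1.8e-04). Axl, the receptor of Gas6, had 281 and 186 CPM in NFs and 921 and 1007 CPM in tumor cells (log2 fold change -1.87 ± 0.29, adjusted p = 0.0042). Styk1 had 0.435 and 0.211 CPM in NFs and 49.6 and 54.9 CPM in tumor cells (log2 fold change -7.11 ± 0.38, adjusted p = 1.1e-04). Per kilobase, Axl (192 CPM per kilobase) and Met (37.3) exceeded Erbb3 (14.004), Erbb2 (12.2) and Egfr (2.57) in mean level in tumor cells.

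Of 26 TGF-beta and BMP ligands and antagonists tested, 16 were higher in NFs and 3 in tumor cells (median 2.21). The tumor count fell to 1 without the CD26- NF or the 13-MCB-17 library. Follistatin-like 1 (Fstl1) had 2960.4 and 2841 CPM in NFs and 0 counts in both tumor libraries (at least 16396-fold higher in NFs, adjusted p = 9.3e-05). Gdf10, a growth factor of this family, had 341 and 122 CPM in NFs and 0 counts in both tumor libraries (at least 1308-fold higher, adjusted p = 9.3e-04). On the tumor side, Bmp7 had 0 counts in both NF libraries and 83.2 and 20.8 CPM in tumor cells (at least 262-fold higher, adjusted p = 0.0035). Tgfb1 had 38.1 and 56.3 CPM in NFs and 89.0 and 84.5 CPM in tumor cells (log2 fold change -0.73 ± 0.23, adjusted p = 0.042). The Tgfb1 call was lost without the filter on low counts (adjusted p = 0.06), without the CD26- NF library (0.13), without the 13-MCB-17 library (0.11) and without the 10-SJK-221 library (0.056). The inhibin chain Inhba had 283 and 119.6 CPM in NFs and 285 and 223 CPM in tumor cells and no call (adjusted p = 0.8). Of 13 receptors of the family tested, 8 were higher in NFs and 1 in tumor cells. Bmpr1b had 15.9 and 7.37 CPM in NFs and 0 counts in both tumor libraries (at least 65.8-fold higher in NFs, adjusted p = 0.002). Acvrl1, the receptor ALK1, had 70.0 and 82.2 CPM in NFs and 0.0543 and 0.382 CPM in tumor cells (log2 fold change 8.63 ± 0.52, adjusted p = 1.5e-04). The signaling receptor Tgfbr2 had 735 and 670.1 CPM in NFs and 198 and 229.7 CPM in tumor cells (log2 fold change 1.88 ± 0.22, adjusted p = 0.0014). The co-receptor Tgfbr3 had 684 and 532 CPM in NFs and 28.5 and 0.445 CPM in tumor cells (log2 fold change 5.52 ± 1.53, adjusted p = 0.029). The Tgfbr3 call was lost without the filter on low counts (adjusted p = 0.072), without the CD26- NF library (0.1) and without the CD26+ NF library (0.095). Acvr2b, at 0.621 and 1.47 CPM in NFs and 4.24 and 4.52 CPM in tumor cells, was the single member toward tumor cells (log2 fold change -1.92 ± 0.54, adjusted p = 0.031). It was not called without the CD26- NF library or without either tumor library.

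The WNT antagonists Sfrp1 and Sfrp2 were higher in NFs, and the ligands Wnt7a and Wnt7b in tumor cells. Of 18 WNT ligands, R-spondins and antagonists tested, 13 were higher in NFs and 4 in tumor cells (median 7.44, or 5.96 with genes at 0 counts in a group set at their bound). The tumor count fell to 2 without the CD26+ NF library. The decoy receptor Sfrp1 had 5070.1 and 2315 CPM in NFs and 0 counts in both tumor libraries (at least 20872-fold higher in NFs, adjusted p = 2.9e-04), the highest fitted fold change of all genes tested. Its relative Sfrp2 had 2835 and 2195 CPM in NFs and 0 counts in both tumor libraries (at least 14217-fold higher, adjusted p = 1.0e-04). Wnt16 had 17.8 and 39.6 CPM in NFs and 0 counts in both tumor libraries (at least 162-fold higher, adjusted p = 8.2e-04). Wnt7b had 0 counts in both NF libraries and 246 and 260.2 CPM in tumor cells (at least 1276-fold higher in tumor cells, adjusted p = 9.3e-05). Wnt7a had 0 counts in both NF libraries and 126 and 80.2 CPM in tumor cells (at least 520.0-fold higher, adjusted p = 2.5e-04). Of 15 WNT receptors and regulators tested, 8 were higher in NFs and 4 in tumor cells. The NF count fell to 5 without the CD26- NF library. The R-spondin receptor Lgr5 had 48.9 and 19.4 CPM in NFs and 0 counts in both tumor libraries (at least 193-fold higher in NFs, adjusted p = 0.0014). Fzd1 had 421 and 341 CPM in NFs and 0.0543 and 0.254 CPM in tumor cells (log2 fold change 11.43 ± 0.51, adjusted p = 9.3e-05). Fzd6 had 3.42 and 5.26 CPM in NFs and 23.2 and 23.1 CPM in tumor cells (log2 fold change -2.26 ± 0.32, adjusted p = 0.0027). The co-receptor Lrp5 had 75.1 and 98.9 CPM in NFs and 285 and 528 CPM in tumor cells (log2 fold change -2.06 ± 0.33, adjusted p = 0.0042). Of 8 Notch genes tested, 1 was higher in NFs and 4 in tumor cells. Without the CD26+ NF library 2 were higher in NFs. Notch3 had 28.3 and 68.9 CPM in NFs and 1.14 and 1.85 CPM in tumor cells (log2 fold change 5.17 ± 0.53, adjusted p = 8.5e-04). The ligand Dll1 had 2.73 and 3.65 CPM in NFs and 57.5 and 83.6 CPM in tumor cells (log2 fold change -4.30 ± 0.29, adjusted p = 2.0e-04), with over 20% of its exon length overlapped by another gene. Another ligand, Jag2, had 0.248 and 0.983 CPM in NFs and 7.66 and 8.14 CPM in tumor cells (log2 fold change -3.54 ± 0.65, adjusted p = 0.0071).

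Chemokine and cytokine RNA was read in both cell types, with different members higher in each. Of 20 chemokines tested, 10 were higher in NFs and 5 in tumor cells (median 2.39). Cxcl12, which holds and draws leukocytes and tumor cells through CXCR4, had 2037 and 1024 CPM in NFs and 0 counts in both tumor libraries (at least 8652-fold higher in NFs, adjusted p = 2.6e-04). Cxcl14 had 1733 and 471 CPM in NFs and 0 counts in both tumor libraries (at least 6229-fold higher, adjusted p = 0.0011). Ccl11, which draws eosinophils, had 81.6 and 38.4 CPM in NFs and 0 counts in both tumor libraries (at least 339-fold higher, adjusted p = 7.4e-04). Among the chemokines known to draw neutrophils, Cxcl3, Cxcl5 and Cxcl1 were higher in tumor cells and Cxcl2 in NFs. Cxcl3 had 0.248 and 0 CPM in NFs and 191 and 117 CPM in tumor cells (log2 fold change -9.96 ± 0.71, adjusted p = 2.4e-04). Cxcl5 had 200.1 and 112 CPM in NFs and 851 and 608 CPM in tumor cells (log2 fold change -2.05 ± 0.39, adjusted p = 0.0078). Cxcl1 had 181 and 218 CPM in NFs and 789.7 and 550.0 CPM in tumor cells (log2 fold change -1.60 ± 0.27, adjusted p = 0.0053). Cxcl2, of the same family, went the other way, with 13.0 and 14.2 CPM in NFs and 2.28 and 3.12 CPM in tumor cells (log2 fold change 2.50 ± 0.35, adjusted p = 0.0028). Of 31 cytokines tested, 9 were higher in NFs and 15 in tumor cells (median -1.15). Il1a, an alarm signal of epithelia, had 0 counts in both NF libraries and 936 and 645 CPM in tumor cells (at least 3985-fold higher in tumor cells, adjusted p = 1.3e-04). Il24 had 0 counts in both NF libraries and 175 and 139.8 CPM in tumor cells (at least 793-fold higher, adjusted p = 1.2e-04). Csf2, or GM-CSF, had 0 counts in both NF libraries and 50.6 and 41.1 CPM in tumor cells (at least 231-fold higher, adjusted p = 2.0e-04). Csf3, or G-CSF, had 1.06 and 1.26 CPM in NFs and 392 and 215 CPM in tumor cells (log2 fold change -7.88 ± 0.46, adjusted p = 1.3e-04). NFs led in Il33, with 125 and 103 CPM in NFs and 0.109 and 0.0636 CPM in tumor cells, 1303 times (95% counting interval 445 to 6320.3) higher. They also led in Il6, with 33.0 and 57.8 CPM in NFs and 1.36 and 0.254 CPM in tumor cells (log2 fold change 5.90 ± 0.68, adjusted p = 0.0014).

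RNA of the receptors for several of these cytokines was higher in NFs. Of 35 cytokine receptors tested, 22 were higher in NFs and 4 in tumor cells (median 2.45). The interleukin-1 receptor Il1r1 had 1040.0 and 636 CPM in NFs and 10.8 and 4.01 CPM in tumor cells (log2 fold change 6.98 ± 0.66, adjusted p = 6.6e-04). Il1rl2, which receives IL-36, had 109 and 108 CPM in NFs and 0 counts in both tumor libraries (at least 614-fold higher in NFs, adjusted p = 1.0e-04). The LIF receptor Lifr had 188 and 130.1 CPM in NFs and 0.0543 and 0 CPM in tumor cells, 5488 times (95% counting interval 985 to 216808) higher in NFs. Csf2ra, which receives GM-CSF, had 4.60 and 7.37 CPM in NFs and 0 counts in both tumor libraries (at least 33.8-fold higher, adjusted p = 0.0017). Toward tumor cells, Il17re had 0 counts in both NF libraries and 6.36 and 10.8 CPM in tumor cells (at least 43.3-fold higher, adjusted p = 0.0017). Tnfrsf1b had 51.0 and 44.7 CPM in NFs and 156 and 164 CPM in tumor cells (log2 fold change -1.57 ± 0.20, adjusted p = 0.0019). Tnfrsf12a had 75.3 and 92.8 CPM in NFs and 266 and 287 CPM in tumor cells (log2 fold change -1.56 ± 0.19, adjusted p = 0.0018). Of 23 chemokine receptors, 4 were tested, and 1 was higher in NFs and 2 in tumor cells. Without the CD26- NF library 2 were higher in NFs. Ackr3, the scavenger of CXCL12, had 21.4 and 40.1 CPM in NFs and 113 and 127 CPM in tumor cells (log2 fold change -1.81 ± 0.30, adjusted p = 0.0049). The signaling receptor Cxcr4 was too low to test, with 1.06 and 0.351 CPM in NFs and 0 counts in both tumor libraries.

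Of 28 tested receptors for hormones, lipids and proteases, 19 were higher in NFs and 4 in tumor cells (median 3.01). The prostaglandin receptor Ptgfr had 35.5 and 37.1 CPM in NFs and 0 counts in both tumor libraries (at least 205-fold higher in NFs, adjusted p = 1.6e-04). The parathyroid hormone receptor Pth1r had 17.6 and 25.3 CPM in NFs and 0 counts in both tumor libraries (at least 121-fold higher, adjusted p = 3.9e-04). The lysophosphatidic acid receptor Lpar2 had 2.05 and 3.23 CPM in NFs and 44.7 and 33.8 CPM in tumor cells (log2 fold change -3.75 ± 0.34, adjusted p = 5.7e-04). Of 20 neurotrophic and guidance ligands tested, 12 were higher in NFs and 5 in tumor cells. Pleiotrophin (Ptn) had 652 and 1238 CPM in NFs and 0 counts in both tumor libraries (at least 5341-fold higher in NFs, adjusted p = 1.6e-04). The guidance cue Slit3 had 776 and 539 CPM in NFs and 0 counts in both tumor libraries (at least 3717-fold higher, adjusted p = 1.3e-04). Sema3e had 0.683 and 0.842 CPM in NFs and 25.5 and 26.6 CPM in tumor cells (log2 fold change -4.92 ± 0.34, adjusted p = 2.0e-04). Sema3f had 13.97 and 20.5 CPM in NFs and 237 and 295 CPM in tumor cells (log2 fold change -3.79 ± 0.26, adjusted p = 2.0e-04). Of 17 guidance receptors tested, 9 were higher in NFs and 3 in tumor cells. The SLIT receptor Robo1 had 31.2 and 43.3 CPM in NFs and 0 counts in both tumor libraries (at least 210.5-fold higher in NFs, adjusted p = 2.0e-04). The neuropilins parted. Nrp1 had 188 and 124 CPM in NFs and 15.3 and 38.9 CPM in tumor cells (log2 fold change 2.72 ± 0.48, adjusted p = 0.0063). Nrp2 had 72.0 and 59.2 CPM in NFs and 1922 and 1585 CPM in tumor cells (log2 fold change -4.58 ± 0.30, adjusted p = 1.7e-04). Of 17 Eph receptors and ephrins tested, 6 were higher in NFs and 7 in tumor cells. The tumor count fell to 4 without either NF library. Epha3 had 166 and 55.0 CPM in NFs and 0 counts in both tumor libraries (at least 624-fold higher in NFs, adjusted p = 0.0014). Epha2 had 15.7 and 22.1 CPM in NFs and 889 and 752 CPM in tumor cells (log2 fold change -5.29 ± 0.29, adjusted p = 1.2e-04).

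Ligands and receptors were then set side by side for 69 pairs known from the literature, to see in which cell type the RNA of each partner was higher. In 17 pairs the ligand was higher in tumor cells and the receptor in NFs, in 8 pairs the reverse held, in 16 pairs both partners were higher in NFs and in 4 both in tumor cells. The other pairs had a partner that was not tested or not called. The pairs share genes, and RNA levels do not show that protein was made or bound. Among pairs with the ligand higher in tumor cells were Il1a with Il1r1, Lif with Lifr, Pdgfb with Pdgfrb, and Areg, Tgfa and Hbegf with Egfr. The tumor lines were selected against PDGFRβ, so the receptor side of Pdgfb with Pdgfrb was tied to the choice of cells. Lif had 63.3 and 58.3 CPM in NFs and 567 and 387 CPM in tumor cells (log2 fold change -2.81 ± 0.29, adjusted p = 8.6e-04). Endothelin 1 (Edn1) had 1.30 and 1.26 CPM in NFs and 24.0 and 27.3 CPM in tumor cells (log2 fold change -4.14 ± 0.32, adjusted p = 3.1e-04). Its receptor Ednra had 78.8 and 73.3 CPM in NFs and 0.0543 and 0.191 CPM in tumor cells (log2 fold change 9.40 ± 0.42, adjusted p = 9.3e-05). Parathyroid hormone-like hormone (Pthlh), the ligand of Pth1r in the gland, had 0.186 and 0 CPM in NFs and 34.3 and 30.03 CPM in tumor cells, 327 times (95% counting interval 112 to 1589.5) higher in tumor cells. Netrin 1 (Ntn1) had 18.7 and 16.1 CPM in NFs and 184 and 273 CPM in tumor cells (log2 fold change -3.54 ± 0.27, adjusted p = 3.2e-04). Its receptor Neo1 had 394 and 348 CPM in NFs and 144 and 162 CPM in tumor cells (log2 fold change 1.45 ± 0.21, adjusted p = 0.0031). Tgfb1 with Tgfbr2, Il11 with Il11ra1 and Osm with Osmr, also in this group, were less stable. The Tgfb1 call was lost under 4 alternatives. Il11 had 25.02 and 19.0 CPM in NFs and 68.8 and 40.1 CPM in tumor cells (log2 fold change -1.15 ± 0.35, adjusted p = 0.04). Its call was lost without the filter on low counts (adjusted p = 0.087), with all 10 libraries in 1 fit (0.1), without the CD26- NF library (0.081), without the CD26+ NF library (0.21) and without the 13-MCB-17 library (0.13). Osm had 0.0621 and 0 CPM in NFs and 0.869 and 0.827 CPM in tumor cells. Its call was lost with DESeq2 (adjusted p = 0.06), without the CD26+ NF library (0.086) and without the 10-SJK-221 library (0.087).

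Among pairs with the ligand higher in NFs were Hgf with Met, Cxcl12 with Ackr3, and Gas6 with Axl. Gas6, the ligand of Axl, had 2257 and 2132 CPM in NFs and 1.03 and 0.763 CPM in tumor cells (log2 fold change 11.39 ± 0.38, adjusted p = 8.3e-05). Pleiotrophin's receptor Ptprz1 had 0.621 and 1.33 CPM in NFs and 54.3 and 16.9 CPM in tumor cells (log2 fold change -5.06 ± 0.75, adjusted p = 0.0033). Il6ra, the receptor of Il6, had 14.7 and 20.5 CPM in NFs and 33.1 and 38.6 CPM in tumor cells (log2 fold change -0.87 ± 0.24, adjusted p = 0.027). The Il6ra call was lost without the CD26- NF library (adjusted p = 0.093) and without the 10-SJK-221 library (0.072). Among pairs with both partners in NFs were Fgf7 and Fgf10 with Fgfr2, Wnt5a with Ror2, Il33 with Il1rl1 and Col1a1 with Ddr2. Fgf7 had 269.7 and 207 CPM in NFs and 1.68 and 2.04 CPM in tumor cells (log2 fold change 7.17 ± 0.32, adjusted p = 9.3e-05). Wnt5a had 102 and 74.5 CPM in NFs and 0.0543 and 0.445 CPM in tumor cells (log2 fold change 8.66 ± 0.61, adjusted p = 2.2e-04). Ddr2, a collagen receptor, had 581 and 389.8 CPM in NFs and 21.2 and 3.44 CPM in tumor cells (log2 fold change 5.44 ± 0.91, adjusted p = 0.0052). The pairs with both partners in tumor cells were Nrg1 with Erbb3, Efnb2 with Ephb4, Efna1 with Epha2, and Sema3c with Nrp2. Nrg1 had 20.3 and 22.1 CPM in NFs and 108 and 80.9 CPM in tumor cells (log2 fold change -1.995 ± 0.24, adjusted p = 0.0015). Efna1 had 4.41 and 3.72 CPM in NFs and 59.2 and 63.9 CPM in tumor cells (log2 fold change -3.75 ± 0.25, adjusted p = 1.8e-04). Efnb2 had 89.5 and 84.8 CPM in NFs and 147 and 189 CPM in tumor cells and Ephb4 had 111 and 108 CPM in NFs and 221 and 175 CPM in tumor cells. The Efnb2 call was lost without the filter on low counts (adjusted p = 0.054), without the CD26- NF library (0.058), without the CD26+ NF library (0.11) and without the 10-SJK-221 library (0.11). The Ephb4 call was lost without the filter on low counts (adjusted p = 0.088), without the CD26- NF library (0.1), without the CD26+ NF library (0.18) and without the 13-MCB-17 library (0.22).

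**Figure D5:**
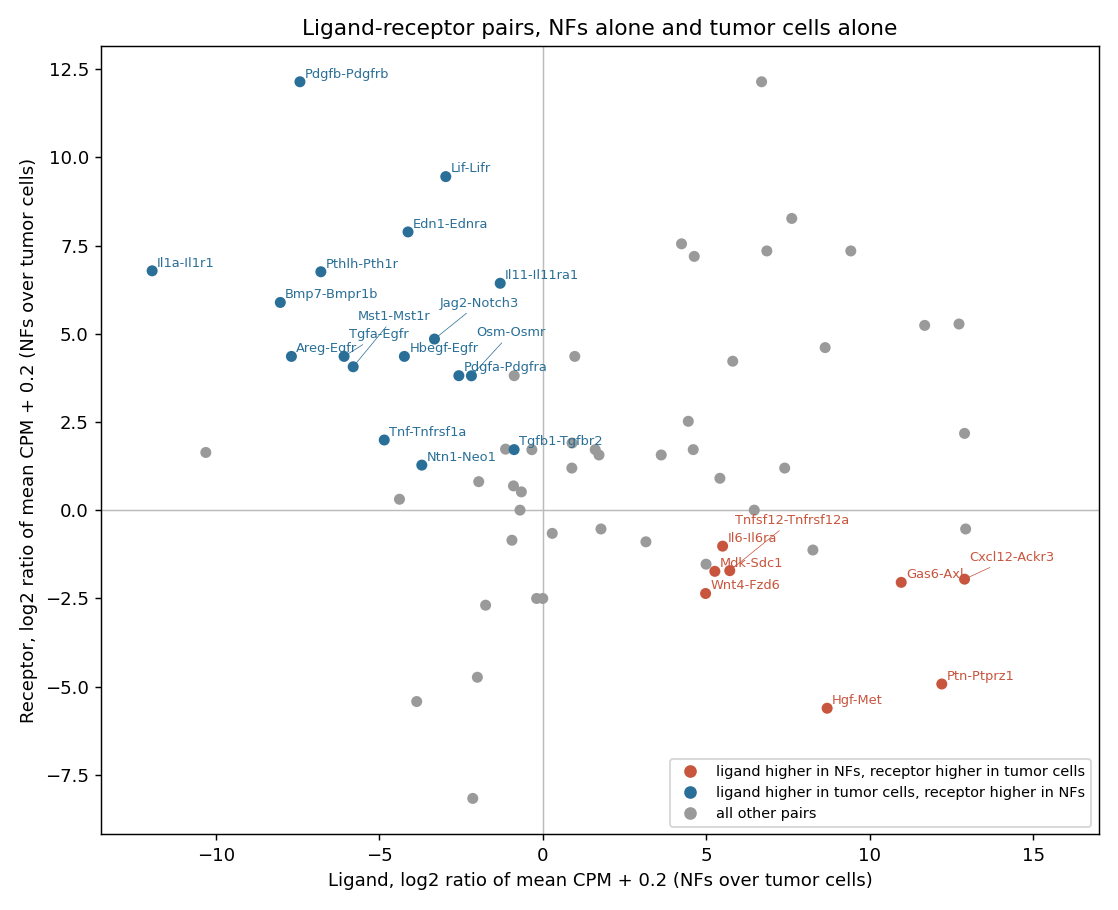
Each point is 1 of 69 ligand-receptor pairs, placed by the log2 ratio of mean CPM (plus 0.2) in NFs over tumor cells for the ligand (x axis) and the receptor (y axis). The 17 blue pairs at upper left have the ligand higher in tumor cells and the receptor in NFs, the 8 red pairs at lower right the reverse, each gene with edgeR adjusted p under 0.05.

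Most cell cycle genes were higher in tumor cells. Of 20 cell cycle genes, all tested, 16 were higher in tumor cells and 0 in NFs by edgeR (median -1.91), and 10 were higher in tumor cells without the CD26+ NF library. Top2a, the topoisomerase of dividing cells, had 51.7 and 21.4 CPM in NFs and 308 and 424 CPM in tumor cells (log2 fold change -3.13 ± 0.49, adjusted p = 0.0039). The mitotic kinase Aurkb had 5.46 and 1.97 CPM in NFs and 36.1 and 56.1 CPM in tumor cells (log2 fold change -3.43 ± 0.54, adjusted p = 0.0041). In bulk RNA, fewer cells of a kind and less RNA per cell cannot be told apart. E2f1, one of the members without a call, had 31.5 and 34.3 CPM in NFs and 23.4 and 37.2 CPM in tumor cells (log2 fold change 0.29 ± 0.26, adjusted p = 0.4).

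Markers of other cell types were counted to see what else the sorted cells could hold. The 12 leukocyte markers summed to 8.197 and 7.93 CPM in NFs and 3.31 and 8.78 CPM in tumor cells. Of 2 tested, Lyz2 was higher in NFs, with 6.02 and 4.07 CPM in NFs and 0 counts in both tumor libraries. Ptprc, which encodes CD45 and was gated out of the NF sort, had 0.0621 and 0 CPM in NFs and 0 and 0.127 CPM in tumor cells. The 10 endothelial markers summed to 6.46 and 14.7 CPM in NFs and 7.17 and 7.38 CPM in tumor cells. Of 5 tested, Tek was higher in NFs. Pecam1, also gated out, had 0.310 and 1.26 CPM in NFs and 0.489 and 1.34 CPM in tumor cells. The 10 glial and neuronal markers summed to 18.2 and 26.5 CPM in NFs and 3.42 and 5.15 CPM in tumor cells, and 3 of 4 tested were higher in NFs, among them Tubb3 (log2 fold change 2.27 ± 0.40, adjusted p = 0.006). The 9 pericyte markers summed to 66.7 and 95.1 CPM in NFs and 10.05 and 5.85 CPM in tumor cells, and 4 of 6 tested were higher in NFs. Rgs5, a pericyte gene, had 9.25 and 6.11 CPM in NFs and 0 and 0.0636 CPM in tumor cells. Adipocyte genes went with the NFs in part. The 10 summed to 1065 and 1569.8 CPM in NFs and 8.04 and 12.3 CPM in tumor cells, and 4 of 5 tested were higher in NFs, or 2 without the CD26+ NF library. Lipoprotein lipase (Lpl) made up nearly all of it, with 1021 and 1495 CPM in NFs and 3.86 and 1.02 CPM in tumor cells (log2 fold change 9.13 ± 0.74, adjusted p = 3.8e-04). The adipocyte-defining Adipoq had 0.497 and 2.53 CPM in NFs and 0.272 and 0.0636 CPM in tumor cells. Cfd, Lep and Retn were under 1 CPM in every library. The part of these cells in the differences above was not tested.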

How the data were processed

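Normal fibroblasts and lobular tumor cells grown alone (2 libraries each) were compared by mRNA sequencing (stranded TruSeq libraries). The authors deposited 1 table of raw read counts per Ensembl gene (55486 genes), and GRCm38 and HISAT2 2.2.1 are named in the submitters' processing notes. The counting program, its strand setting and the annotation release are not given in the sources used here. Antisense or overlapping genes may therefore share reads, and genes with over 20% of exon length overlapped were marked. A further floxed allele of the tumor model and single values of some list members are not reported here.

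Depth was 14247600 to 18408940 counts per library. edgeR 4.0.16 (R 4.3.3) fitted the 4 libraries with TMM scaling, filterByExpr and the quasi-likelihood test, with Benjamini-Hochberg adjustment over all 14404 genes tested. CPM used library totals, and levels between genes were compared per kilobase of GENCODE M21 exon length (99.5% of genes matched). Lower bounds of folds used the mean CPM of the higher group and 3 counts per library in the other. Counting intervals are exact at 95% and cover counting error only. The 2 libraries of a group are different NF subsets or different tumor lines, and no pair agreed within sampling noise (chi-square per degree of freedom 69.9 for NFs and 68.7 for tumor lines).

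Genes named in the text were the 10 highest and 10 lowest log2 fold changes over all genes (mean of at least 50 CPM in the higher group) and genes among the 3 highest and 3 lowest of each list (at least 5 CPM), with adjusted p under 0.05 and groups that do not overlap. Genes of ligand-receptor pairs and defining markers could also be named. Other genes, chosen after their values were seen, are named for context. The 42 lists, the 69 pairs and all members were chosen with earlier results of these data known. Alternatives were RLE scaling, library totals, no filter, DESeq2 1.42.0, all 10 libraries in 1 fit, and each library left out, where the lone library is assumed to vary like the other group. The scripts were tested on simulated data.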

Additional observations from a re-analysis of the deposited data

How the results depend on the processing

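The number of genes switched on in 1 cell type depended on the level asked for. At 1 CPM in place of 10 CPM it was 1057 genes in NFs and 384 in tumor cells. The count of genes higher in tumor cells ranged from 1955 to 2603 when single libraries were left out, lowest without the CD26+ NF library, against 3064 with all 4. The number of genes called was 6755 with RLE scaling, 7000 with library totals, 7063 with DESeq2, 5735 without the filter on low counts and 8564 with all 10 libraries in 1 fit. With library totals 47.5% of calls were higher in NFs, against 54.9% with TMM scaling. The next counts cover all genes of the ligand-receptor pairs and the genes named from lists or over all genes. They leave out called genes named for context, such as Vim and Snai1. Of 240 called genes, 215 kept the call under every alternative that gave a value, 25 lost it under at least 1, and 0 reversed. The cause was not tested. No paired analysis was possible because the labels give no replicate numbers shared by the groups. With 2 libraries a group, small differences in genes of few counts could not be detected at this depth.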

Other observations

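A pair of gene lists was drawn up after the values were seen, so their counts are a description only. Genes of stratified epithelium and some of the cornified envelope, a program of skin rather than of luminal mammary cells, were read in the tumor lines. The list also holds desmosome genes, such as Pkp1 and Dsg3. Of 33 tested members among 46, 2 were higher in NFs and 27 in tumor cells (median -9.90, or -7.62 with genes at 0 counts in a group set at their bound), beside 21.3% of all genes higher in tumor cells. Krt16, a keratin of stressed epidermis, had 0 counts in both NF libraries and 175 and 104 CPM in tumor cells (at least 703-fold higher, adjusted p = 2.7e-04). Dsg3, the desmoglein of stratified epithelium, had 0 counts in both NF libraries and 74.2 and 53.1 CPM in tumor cells (at least 321-fold higher, adjusted p = 2.2e-04). Padi4, an enzyme that turns arginine into citrulline, had 0 counts in both NF libraries and 147 and 188 CPM in tumor cells (at least 846-fold higher, adjusted p = 1.0e-04). Ivl, or involucrin, a protein of the envelope, had 0.124 and 0.351 CPM in NFs and 9.23 and 10.8 CPM in tumor cells (log2 fold change -5.23 ± 0.58, adjusted p = 0.0012). Other envelope genes were low or without a call. Lor had 0 counts in both NF libraries and 0.109 and 0.382 CPM in tumor cells. Tgm1 (adjusted p = 0.86) and Sprr1a (adjusted p = 0.078) were not called, while Evpl, Ppl and Sprr1b were higher in tumor cells. Flg, the filaggrin gene, and Krt1 had 0 counts in all 4 libraries. Krt10, the usual partner of Krt1, was among the members higher in NFs, with 1.68 and 1.90 CPM in NFs and 0 counts in both tumor libraries (at least 10.1-fold higher, adjusted p = 0.0034).

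Imprinted genes, which are read from 1 parental copy, were mostly higher in NFs. Of 26 tested members among 34, 17 were higher in NFs and 2 in tumor cells (median 8.37, or 5.37 with genes at 0 counts in a group set at their bound), beside 25.9% of all genes higher in NFs. Meg3, a long noncoding RNA, had 389 and 440.4 CPM in NFs and 0 counts in both tumor libraries (at least 2343-fold higher, adjusted p = 9.3e-05). H19, another one, had 267 and 465 CPM in NFs and 0 counts in both tumor libraries (at least 2068-fold higher, adjusted p = 1.5e-04). Peg3, a zinc finger gene, had 38.4 and 39.6 CPM in NFs and 0 counts in both tumor libraries (at least 220.3-fold higher, adjusted p = 1.5e-04). The growth inhibitor Grb10 had 442 and 333 CPM in NFs and 0 counts in both tumor libraries (at least 2190.1-fold higher, adjusted p = 1.2e-04). Toward tumor cells, Phlda2 had 0 counts in both NF libraries and 6.46 and 12.6 CPM in tumor cells (at least 48.0-fold higher, adjusted p = 0.0019). Igf2r had 245 and 374 CPM in NFs and 278 and 199 CPM in tumor cells and did not pass the threshold (log2 fold change 0.52 ± 0.29, adjusted p = 0.18). Donor genotype, culture time and transformation cannot be told apart from cell type here.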
